A study of Mus musculus with 8 samples.

Results

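Hes1, Hes5, Hey1 and Nrarp are 4 of the 27998 genes listed for single cells of the embryonic mouse cortex, and their levels are described here by cell class in wild type cortex and in cortex that received ShhN. They are direct outputs of the Notch pathway. They were chosen because their levels by class in these same cells had already been seen, so the levels and ratios between the libraries are a description and carry no test. All 4 were found in both libraries. None of them was used to define a cell class.

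Notch is a receptor that is cut when a ligand on a neighbouring cell binds it. The freed intracellular part enters the nucleus, joins the DNA-binding protein RBPJ and switches on target genes. Hes1 and Hes5 encode basic helix-loop-helix repressors that hold down the proneural genes and keep radial glia, the stem cells of the cortex, from differentiating. Hey1 encodes a related repressor. Nrarp encodes an ankyrin repeat protein that limits Notch signalling by binding the intracellular part of the receptor. Radial glia give rise to intermediate progenitors, marked by Eomes (Tbr2), and these give rise to neurons of the glutamatergic lineage. Hes1 is also known to respond to signals other than Notch, sonic hedgehog (SHH) among them.

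In GENCODE M21 (GRCm38), Hes1 (ENSMUSG00000022528) lies at chr16:30064384-30067796 on the plus strand and Hey1 (ENSMUSG00000040289) at chr3:8663359-8667256 on the minus strand, with no overlapping gene. Hes5 (ENSMUSG00000048001) lies at chr4:154960923-154962371 on the plus strand and overlaps Gm20421 on the minus strand. Nrarp (ENSMUSG00000078202) lies at chr2:25180758-25183339 on the plus strand and overlaps its antisense gene Gm38287. Whether counting used strand is not given in the sources used here, so reads of Hes5 and Nrarp cannot be told apart from reads of those partners. The 250 bases before the start site were read for Hes5 and Nrarp from RefSeq (GRCm38.p6) and searched on both strands for TGGGAA, the core of the RBPJ motif (TTCCCA on the other strand). Hes5 had 2 matches, which are shown with the bases around them because Hes5 and Nrarp are both known Notch targets, and in Eomes progenitors Nrarp was lower in the ShhN library while the interval of the Hes5 ratio spanned no difference. The first match starts 226 bases and the second 82 bases before the start site of the window's transcript, 154960923, where the GENCODE gene also begins. The RefSeq record of the Hes5 gene begins further upstream, at 154960626, so both matches lie inside that record. They lie in chr4:154960685-154960714 and chr4:154960829-154960858, and capitals mark the match:
Hes5 site 1: agggcgagcgcgTTCCCAcagcccggacat
Hes5 site 2: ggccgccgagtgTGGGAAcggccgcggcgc
The Nrarp window, chr2:25180508-25180757 on the plus strand, has 0 matches and is shown in lower case throughout:
Nrarp: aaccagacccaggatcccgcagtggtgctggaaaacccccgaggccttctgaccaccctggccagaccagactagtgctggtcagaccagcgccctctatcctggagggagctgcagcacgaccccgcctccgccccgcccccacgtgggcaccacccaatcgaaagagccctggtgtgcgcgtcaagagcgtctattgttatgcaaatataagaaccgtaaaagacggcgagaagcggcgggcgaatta
Of 32851 promoter windows of this length, 21.6% hold at least 1 match and 2.77% hold at least 2. A match is a description of the letters only, and whether matches bear on the ratios was not tested.

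Cortex of CD1 mice was taken at embryonic day 16.5 from 4 wild type littermate samples and from 4 samples that received a ShhN plasmid by in utero electroporation at E13.5, and was measured by 10x Genomics droplet sequencing. ShhN is the signalling fragment of SHH. Electroporation reaches only a share of the progenitors at the ventricle, and the labels name neither the plasmid's promoter nor a control plasmid for the littermates. Each group was deposited as 1 matrix with no map from cells to its samples. There is thus 1 library per group, no difference below has a replicate check, and no p-value is given. Intervals are 95% and cover counting error only. The wild type library held 63760199 unique molecular identifiers (UMIs) and 6924 cells with a median of 6279 UMIs. The ShhN library held 69470062 UMIs and 8075 cells with a median of 6683. The libraries shared 71 cell barcodes, against 75.8 from the product of their shares of all listed barcodes. Shh itself had 0 UMIs in wild type cells and 5910 in ShhN cells, and its target Ptch1 was 6.29-fold higher in ShhN cells (5.51 to 7.20), in the direction the labels give.

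Cells were sorted into 14 classes by counts of detected markers. Those past no gate, or tied between excitatory neuron classes in the share of markers seen, were left unassigned. Gates for vessel cells, microglia, Cajal-Retzius cells, progenitors with Olig1 or Olig2, and interneurons were applied before the radial glia gate. Radial glia had at least 5 of 9 markers and fewer than 2 Eomes UMIs, and numbered 144 wild type and 278 ShhN cells. Another 104 and 93 cells passed the same gate with 2 or more Eomes UMIs and are called radial glia with Eomes. Cells with 2 or more Eomes UMIs below the radial glia gate are called Eomes progenitors, 581 and 877 in number. Of these, 69 wild type and 343 ShhN cells were dividing, with at least 4 of 12 cell cycle markers. These classes are ranges along a lineage and not separate types. In the wild type library 15 radial glia sat exactly at the gate, and 92 Eomes progenitors lay 1 marker below it; in the ShhN library these numbers were 37 and 131. The median radial glia cell had 8 of the markers in the wild type against 7 in the ShhN library. The median non-dividing Eomes progenitor had 2 in both. The median count of endothelial, mural and microglial markers was 0 in all 4 of these classes in both libraries. The median non-dividing Eomes progenitor also had 4 newborn neuron markers in both libraries, as did the median newborn neuron, whose gate was 3 of 6. The Eomes gate came first, so a cell past both gates was counted as an Eomes progenitor.

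In the wild type cortex Hes1 was high in radial glia and close to absent from Eomes progenitors and neurons. Its level, in UMIs per 1000000 UMIs of the class (CPM), was 139 in radial glia (118 to 163), 30.1 in radial glia with Eomes (20.2 to 43.3), 3.43 in dividing Eomes progenitors (0.415 to 12.4) and 2.55 in non-dividing ones (1.10 to 5.03). Neurons held 0.400 CPM when newborn, 1.18 in the upper layers and 0.599 in the deep layers, and their intervals overlapped those of Eomes progenitors in part or in whole. Blood vessel cells held Hes1 at the top of the order, 242 CPM in 26 mural cells (167 to 340) and 205 CPM in 21 endothelial cells (158 to 262), which did not differ beyond counting error. Radial glia held 46.1% of all Hes1 UMIs in wild type cells. No Hes1 UMI was seen in 7 microglia.

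Hes5 followed the radial glia more closely than the vessels. Its level in the wild type was 147 CPM in radial glia (125 to 171) and 112 CPM in radial glia with Eomes (92.1 to 136), 2 classes whose intervals overlap. It was 18.9 CPM in dividing and 19.2 CPM in non-dividing Eomes progenitors. Newborn neurons held 4.40 CPM, upper layer neurons 2.0 and deep layer neurons 0.239. Endothelial and mural cells had 0 Hes5 UMIs in both libraries, so the Hes5 signal of the progenitors was accompanied by none in vessels.

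Nrarp stayed high further along the lineage. Its wild type level was 131 CPM in radial glia (111 to 155), 109 in radial glia with Eomes (89.3 to 132) and 104 in non-dividing Eomes progenitors (93.1 to 116), and these 3 intervals overlap. Dividing Eomes progenitors held 56.6 CPM (39.0 to 79.5), below the non-dividing ones. Nrarp was 17.6 CPM in newborn neurons (14.1 to 21.7), 5.41 in upper layer and 4.43 in deep layer neurons. Vessels were high, with 227 CPM in mural and 114 CPM in endothelial cells.

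Hey1 was spread more evenly. Its wild type level was 61.8 CPM in endothelial cells (37.2 to 96.6), 39.8 in radial glia (29.0 to 53.5), 30.01 in non-dividing Eomes progenitors (24.2 to 36.7) and 25.6 in newborn neurons (21.4 to 30.5), neighbours whose intervals overlap. It was still 11.9 CPM in deep layer and 10.4 CPM in upper layer neurons. Interneurons were lowest among classes of at least 50 cells, at 2.01 CPM (0.739 to 4.38). Hey1 is thus the member of the 4 with a level in newborn neurons close to that in Eomes progenitors.

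The level outside cells was read from barcodes of 1 to 50 UMIs, which are taken here as free RNA. These barcodes held in the wild type 6.65 CPM of Hes1, 11.4 of Hes5, 13.3 of Hey1 and 17.1 of Nrarp. In the ShhN library they held 26.0 CPM of Hes1 (17.7 to 36.9), 17.6 of Hes5, 15.9 of Hey1 and 11.7 of Nrarp. Free Hes1 thus differed between the libraries in the same direction as Hes1 in the Eomes progenitors, and the intervals of free Nrarp overlap (10.1 to 27.0 and 6.42 to 19.7). Wild type Nrarp depended on the range, at 5.19 CPM (1.69 to 12.1) in barcodes of 51 to 100 UMIs. How much of the free RNA cells take up was read from globin, a blood transcript. The level of globin in the median cell was between 3.13% and 5.41% of its level in barcodes of 1 to 50 UMIs. This held in each class large enough for a ratio (50 cells per library). Globin summed over a class, which a few cells rich in globin can raise, gave another scale. As a fraction of the same barcodes it was 0.37 over all wild type and 0.34 over all ShhN cells. By class it ran from 0.0399 in wild type to 1.80 in ShhN radial glia with Eomes. Within the ShhN library Hes1 was 3.70 CPM in upper layer and 1.18 CPM in deep layer neurons, and 6 microglia had 0 UMIs of each of the 4 genes. Hey1 in upper and deep layer neurons was not above the free RNA in either library, with overlapping intervals except in ShhN upper layer neurons, where it was lower (6.81 to 9.49 against 9.59 to 24.9).

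**Figure D1:**
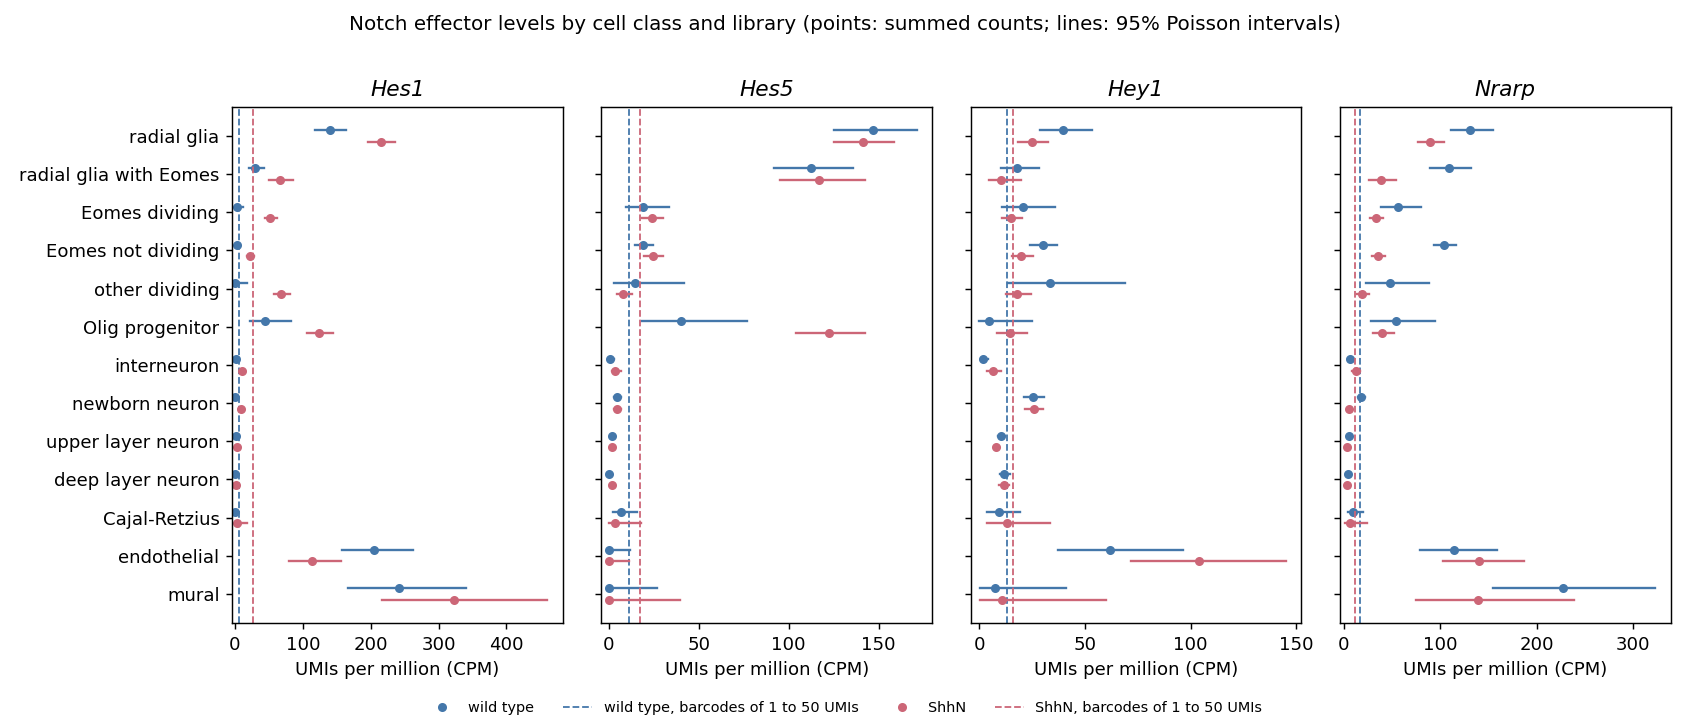
Level of each gene (x axis, CPM of the class total, linear scale, different range in each panel) in each cell class (y axis) of the wild type (blue) and ShhN (red) libraries, with 95% Poisson intervals as horizontal lines and the level in barcodes of 1 to 50 UMIs as dashed lines. Hes1 in dividing Eomes progenitors is 3.43 CPM in the wild type against 52.3 CPM in the ShhN library, while Nrarp in non-dividing Eomes progenitors is 104 and 35.4 CPM.

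In radial glia the 4 genes differed between the libraries by less than 2-fold. Hes1 was 139 CPM in the wild type against 215 CPM in the ShhN library, 1.54-fold higher (1.28 to 1.86). Hes5 was level, at 147 and 141 CPM, with a log2 ratio of ShhN over wild type of -0.05 (-0.34 to 0.23). Hey1 was 39.8 and 24.8 CPM, a log2 ratio of -0.69 (-1.30 to -0.07). Nrarp was 131 and 89.8 CPM, a log2 ratio of -0.55 (-0.87 to -0.22). A size rule of at least 50 UMIs over both libraries and at least a 2-fold difference (1 on the log2 scale) was met by 0 of the 4, while 1.51% of 6698 genes met it as higher and 2.13% as lower in ShhN radial glia. The radial glia of the ShhN library held less Fabp7, a radial glia gene and one of the gate's markers (log2 ratio -1.27), and much more Ptch1 (3.62). The part of these differences in the member levels was not tested.

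In radial glia with Eomes, Hes1 and Nrarp went opposite ways. Hes1 was 30.1 CPM in the wild type against 66.1 CPM in the ShhN library, 2.19-fold higher (1.38 to 3.56). Nrarp was 109 and 38.3 CPM, 2.85-fold lower, with a log2 ratio of -1.51 (-2.12 to -0.93). Hes5 was 112 and 117 CPM (log2 ratio 0.06, -0.34 to 0.47), and Hey1 had only 17 and 9 UMIs. In this class 1 member passed the size rule as higher and 1 as lower, with 2.02% of genes passing in each direction. The Hes1 call rests on where the gates are set. With every gate raised by 1 marker and Eomes raised to 3 UMIs the log2 ratio was 0.22.

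In Eomes progenitors Hes1 was low in the wild type and higher in the ShhN library. In dividing cells it was 3.43 CPM in the wild type, from 2 UMIs, and 52.3 CPM in the ShhN library (44.2 to 61.4), from 149 UMIs, a log2 ratio of 3.93 (2.05 to 6.99). In non-dividing cells it was 2.55 CPM from 8 UMIs and 22.5 CPM from 77 UMIs (17.8 to 28.2), a log2 ratio of 3.14 (2.09 to 4.40). The wild type and ShhN intervals do not overlap in either state. The ShhN level in non-dividing cells lies near that of the free RNA of the same library, 26.0 CPM, and is 6.1 times that of upper layer neurons of the same library. Free RNA subtracted by the class level of globin gave no value for this ratio in non-dividing cells. The 8 other settings gave log2 ratios of 2.88 to 3.31. The part of free RNA in the ShhN level was not tested further. Over dividing and non-dividing cells together Hes1 was 2.69 and 36.1 CPM, 13.4-fold higher in ShhN (7.15 to 28.3).

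Nrarp was lower in the same Eomes progenitors. In non-dividing cells it was 104 CPM in the wild type (93.1 to 116) and 35.4 CPM in the ShhN library (29.4 to 42.3), a log2 ratio of -1.56 (-1.87 to -1.25). In dividing cells it was 56.6 and 33.3 CPM, a log2 ratio of -0.77 (-1.35 to -0.15). Over both states it was 2.80-fold lower, with 359 UMIs in the wild type against 216 in the ShhN library. Dividing cells were 343 of 877 ShhN and 69 of 581 wild type Eomes progenitors, and the part of this difference in the ratio over both states was not tested.

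Hes5 and Hey1 were nearer to level in these cells. Hes5 was 19.1 CPM in all wild type and 24.2 CPM in all ShhN Eomes progenitors, a log2 ratio of 0.34 (-0.07 to 0.77), an interval that spans no difference. Hey1 was 28.5 and 17.7 CPM, a log2 ratio of -0.69 (-1.09 to -0.29). Of the 4 genes, 1 passed the size rule as higher and 1 as lower over all Eomes progenitors, where 3.23% and 2.14% of 9215 genes did. In dividing Eomes progenitors 1 passed as higher and 0 as lower, against 1.29% and 1.12% of genes. In non-dividing ones 1 passed as higher and 1 as lower, against 1.25% and 1.2% of genes. Eomes itself differed little over all Eomes progenitors (log2 ratio -0.16).

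**Figure D2:**
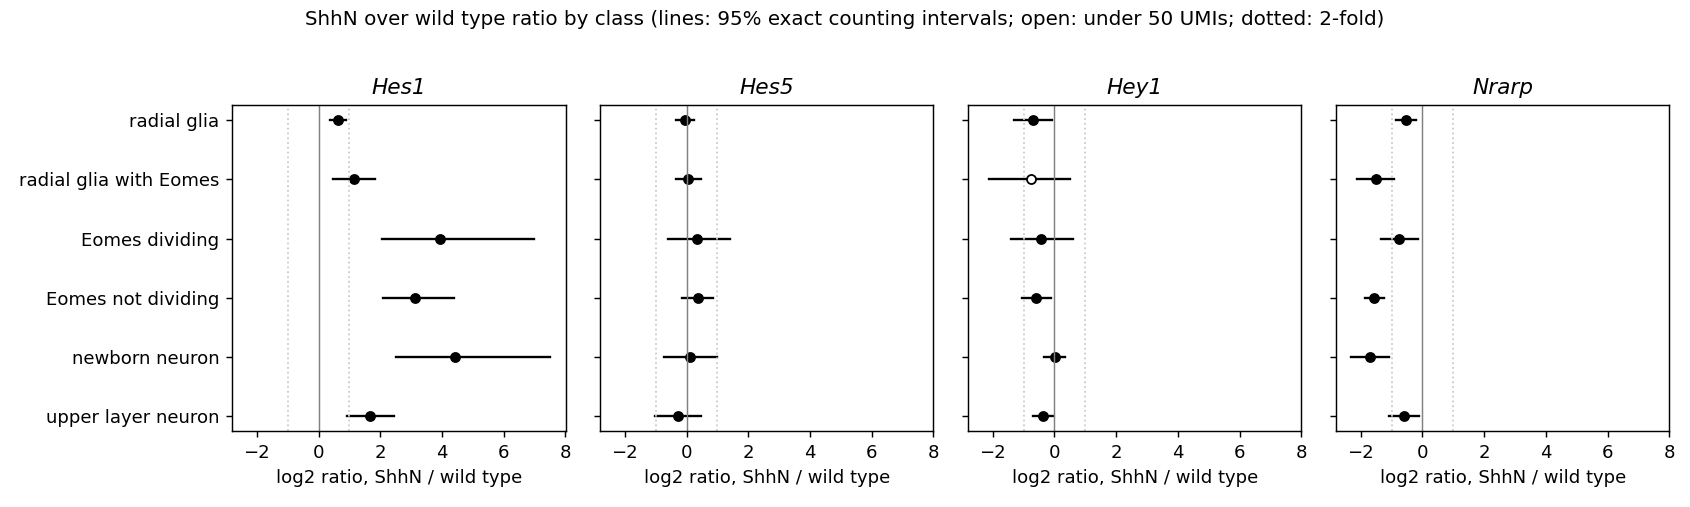
Log2 ratio of ShhN over wild type level (x axis) for each gene in the 6 excitatory lineage classes (y axis), with exact 95% counting intervals as lines, the 2-fold lines dotted and an open point where both libraries together hold under 50 UMIs. Hes1 lies right of 0 in every class drawn, from 0.62 in radial glia to 4.43 in newborn neurons, and Nrarp lies left of 0 in every class drawn.

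The opposite differences of Hes1 and Nrarp were also seen in newborn neurons. Hes1 had 2 UMIs in 800 wild type cells (0.400 CPM) and 52 UMIs in 970 ShhN cells (8.63 CPM, 6.44 to 11.3), a log2 ratio of 4.43 (2.50 to 7.51). Nrarp was 17.6 and 5.48 CPM, a log2 ratio of -1.69 (-2.31 to -1.09). Hes5 (4.40 and 4.81 CPM) and Hey1 (25.6 and 25.7 CPM) were level. Again 1 member passed as higher and 1 as lower, against 0.736% and 2.74% of genes. These Hes1 levels lie below the free RNA of their libraries. Free RNA subtracted by the class level of globin gave no value for Hes1, Hes5 or Nrarp here. Under the other settings with a value, the log2 ratio of Hes1 ran from 3.49 to 6.21 and that of Nrarp from -1.76 to -1.44. The part of free RNA in these levels was not tested further.

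In older neurons the levels were small. Upper layer neurons held 1.18 CPM of Hes1 in the wild type against 3.70 CPM in the ShhN library, a log2 ratio of 1.65 (0.92 to 2.45), and 1 of 4 members passed as higher and 0 as lower, against 0.565% and 0.926% of genes. In deep layer neurons 0 of 4 passed, against 0.305% higher and 0.857% lower, and Hes1 (5 and 11 UMIs) and Hes5 (2 and 16 UMIs) were under the minimum count. Hey1 in deep layer neurons was 11.9 and 11.6 CPM.

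Some classes of the ShhN library had few counterparts in the wild type, and there only levels are given. Dividing cells below the radial glia and Eomes gates, and in none of the classes gated before these, numbered 32 in the wild type against 277 in the ShhN library. Hes1 had 0 UMIs in the 32 cells, where 3 UMIs would be 14.4 CPM, and 68.1 CPM (57.2 to 80.5) in the 277 cells. The newborn neuron gate, 3 markers, did not exclude these dividing cells. Their median count of newborn neuron markers was 3 for ShhN cells and 2 for wild type cells. Progenitors with Olig1 or Olig2, genes of the oligodendrocyte lineage, numbered 20 and 149. They held 44.9 CPM (21.5 to 82.5) and 124 CPM (106 to 144) of Hes1, and 40.4 CPM (18.5 to 76.7) and 122 CPM (104 to 143) of Hes5. Among the progenitor classes, Hes5 intervals of the 2 libraries lie apart in this one alone.

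Among interneurons, gated on Dlx and GABA genes, the members were low, with 1.01 and 10.9 CPM of Hes1 in the wild type and ShhN libraries and 6.38 and 12.2 CPM of Nrarp. The makeup of this class differed, since 143 of 495 ShhN cells and 8 of 715 wild type cells were dividing. Also, 34 ShhN and 5 wild type interneurons passed the radial glia gate as well, and their part in the levels was not tested. In the ShhN library the dividing cells held 20.1 CPM of Hes1 and 24.3 CPM of Nrarp, and the others 4.57 and 4.00. Non-dividing wild type interneurons held 0.345 CPM of Hes1 and 4.49 CPM of Nrarp. Of the 4 genes 0 passed the size rule here, 3 of them under the minimum count, against 6.59% and 4.64% of genes. In the whole libraries, where class sizes differ, Hes1 alone of the 4 passed, 3.25-fold higher (2.88 to 3.67), against 3.06% of genes higher and 2.09% lower.

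The share of cells with a UMI was compared after thinning every cell to 4500 UMIs and leaving out shallower cells, 1664 in the wild type against 1057 in the ShhN library. In Eomes progenitors Hes1 was seen in 1.25% of 479 wild type cells (0.461 to 2.71) and 10.8% of 805 ShhN cells (8.75 to 13.2). Upper layer neurons of these libraries had it in 0.423% and 1.56% of cells. Nrarp was seen in 32.6% (28.4 to 37.0) and 13.4% (11.1 to 16.0) of Eomes progenitors, and in 2.44% and 1.29% of upper layer neurons. Before thinning, these classes had median depths of 6931 and 7316 UMIs in upper layer neurons and 5704 and 6344 UMIs in Eomes progenitors. The Eomes progenitor shares of both genes are thus above those of neurons at equal depth, except Hes1 in the wild type, whose interval overlaps that of upper layer neurons.

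The other members differed less in these shares. Hes5 was seen in 10.0% and 10.4% of Eomes progenitors, and Hey1 in 11.1% and 7.45%. In radial glia Hes1 was seen in 41.7% of 120 wild type cells (32.7 to 51.02) and 48.7% of 238 ShhN cells (42.2 to 55.3), intervals that overlap. Radial glia with Eomes had Hes1 in 8.16% and 23.3% of cells and Nrarp in 38.8% (29.1 to 49.2) and 12.2% (6.26 to 20.8).

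The order along the lineage was read with Eomes counts alone, over all cells of the radial glia, Eomes and other dividing classes thinned to 4500 UMIs. Wild type Hes1 went from 109 CPM in cells with 0 Eomes UMIs (85.8 to 136) to 15.3 with 1 UMI, 5.01 with 2 or 3 and 3.35 with 4 or more (0.691 to 9.79). ShhN Hes1 started at 130 CPM (115 to 147) and was 50.9, 32.8 and 40.4 CPM (30 to 53.3) in the same bins. At 0 Eomes UMIs the 2 intervals overlap, and at 4 or more they lie far apart. Nrarp showed no such slope in the wild type, with 136, 67.5, 113 and 127 CPM, and was lower in the ShhN library in every bin, with 55.1, 28.7, 35.4 and 50.1 CPM. Eomes counts sort cells with error, since a cell with the gene can show 0 UMIs, and the bin of 0 holds 155 wild type and 460 ShhN cells of differing class makeup.

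**Figure D3:**
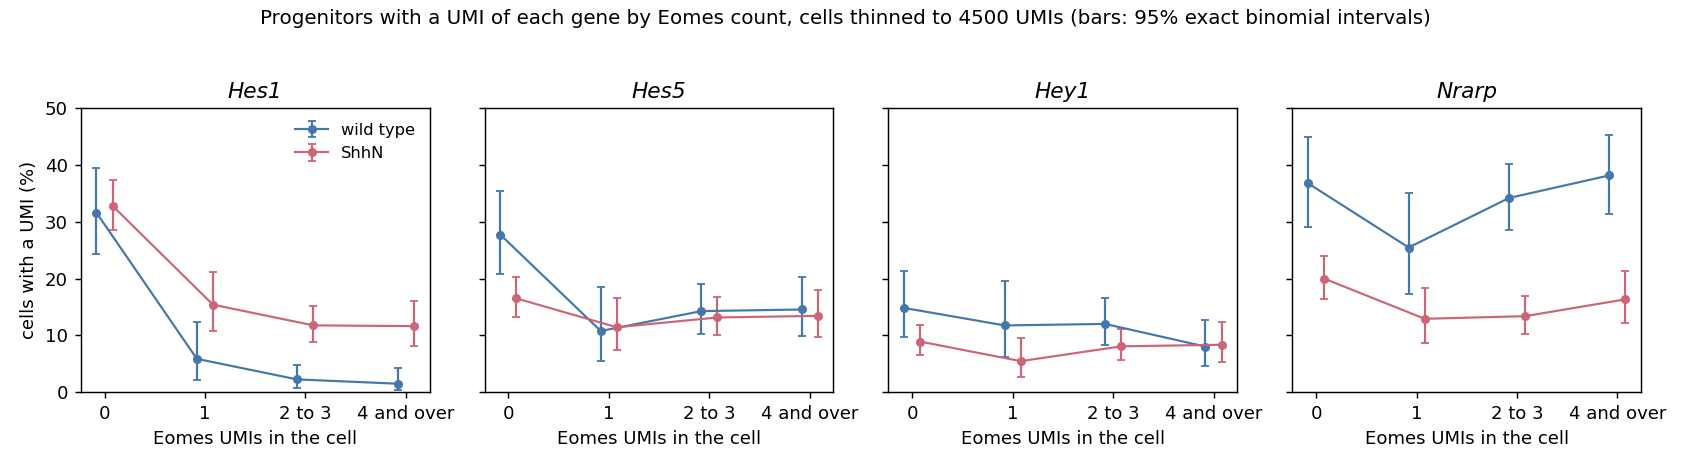
Share of progenitor cells with a UMI of each gene (y axis, percent of cells thinned to 4500 UMIs) by the number of Eomes UMIs in the cell (x axis), with exact 95% binomial intervals, wild type in blue and ShhN in red. Hes1 is seen in 1.51% of the wild type cells and 11.6% of the ShhN cells with 4 or more Eomes UMIs, and Nrarp in 38.2% and 16.4%.

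Whether Hes1 went with the hedgehog response of a cell was described with Ptch1 and Gli1, targets of SHH, since the plasmid reaches only some cells and SHH is secreted. Among ShhN Eomes progenitors, the 167 cells with at least 1 Ptch1 or Gli1 UMI held 75.7 CPM of Hes1 (61.8 to 91.7), and the 710 cells without held 24.9 CPM (20.7 to 29.8). Both lie above the 573 wild type cells without such a UMI, at 2.74 CPM (1.31 to 5.04). Cells with the UMI were deeper, with a median of 7811 against 6148 UMIs, and after thinning Hes1 was seen in 23.2% of 99 cells with (15.3 to 32.8) and 9.07% of 706 cells without (7.05 to 11.4). Of the cells with the UMI 93 were dividing, and of those without 250 were. Within dividing ShhN Eomes progenitors Hes1 was 96.1 CPM with (75.8 to 120) and 35.1 CPM without (27.5 to 44.2). Within non-dividing ones it was 47.2 (31.1 to 68.6) and 17.6 CPM (13 to 23.2).

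Nrarp and Hes5 did not follow the same split. In ShhN Eomes progenitors Nrarp was 26.9 CPM in cells with a Ptch1 or Gli1 UMI (19.0 to 37.1) and 36.6 CPM in those without (31.4 to 42.3), both under the wild type level of 96.2 CPM. Hes5 was 26.9 and 23.5 CPM, and Hey1 15.3 and 18.4 CPM, all with overlapping intervals. In ShhN radial glia Hes1 was 229 CPM with (201 to 259) and 200 CPM without (173 to 230), and Nrarp was 72.9 CPM with (57.7 to 90.9) and 109 CPM without (88.9 to 131). Radial glia with Eomes were the class where Hes5 split, at 56.2 CPM in 28 cells with such a UMI (33.9 to 87.8) and 156 CPM in 65 cells without (124 to 194).

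**Figure D4:**
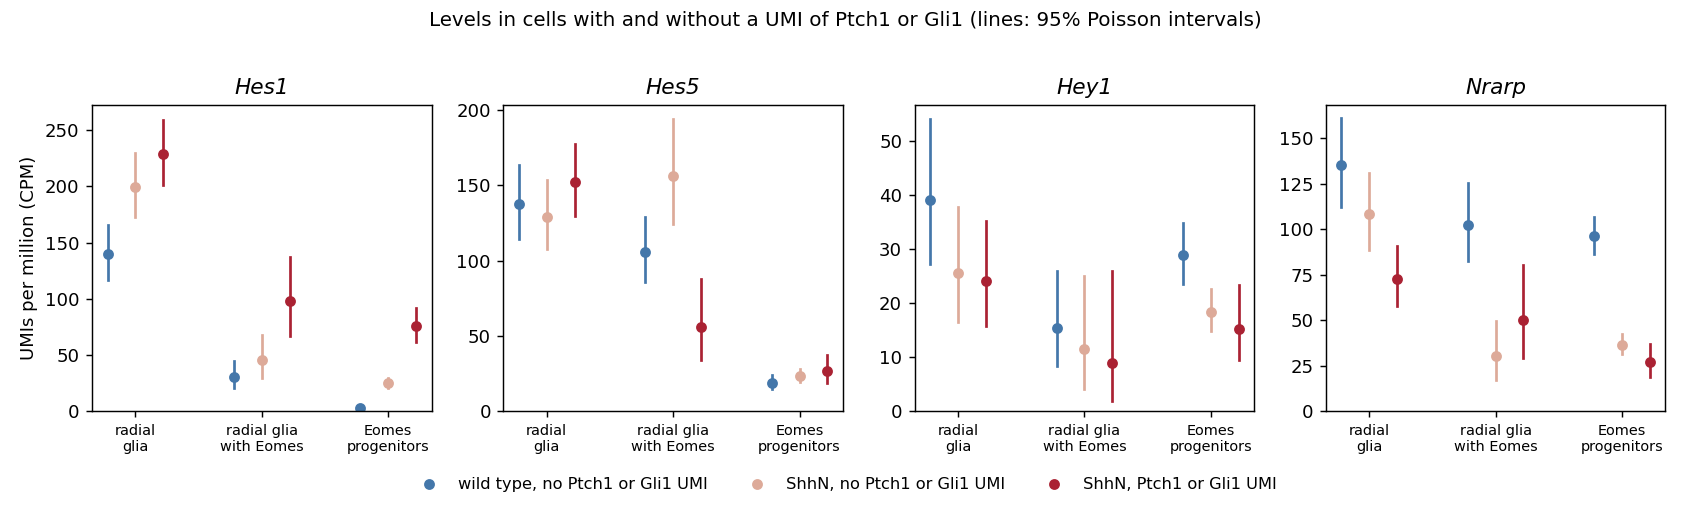
Level of each gene (y axis, CPM of the summed cells, from 0, different range in each panel) in 3 progenitor classes (x axis) of wild type cells without a Ptch1 or Gli1 UMI (blue), ShhN cells without one (light red) and ShhN cells with one (dark red), with 95% Poisson intervals as lines. In Eomes progenitors Hes1 runs from 2.74 to 24.9 to 75.7 CPM, while Nrarp is 96.2, 36.6 and 26.9 CPM.

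Cells with a Shh UMI, which carried the plasmid or free Shh RNA, were few among progenitors. The 37 such Eomes progenitors held 118 CPM of Hes1 (79.8 to 169), and the 840 without held 32.6 CPM (28.2 to 37.5), so the level above wild type was also present in Eomes progenitors with no Shh UMI. In newborn neurons with a Shh UMI, 70 cells, Hes1 had 1 UMI (2.23 CPM), and Nrarp had 2. Upper layer neurons with a Shh UMI, 279 cells, held 6.78 CPM of Hes1 (3.79 to 11.2) and 2.71 CPM of Hey1 (0.995 to 5.90), against 8.07 CPM of Hey1 over the whole class.

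Among Eomes progenitors furthest from the radial glia gate, with at most 2 of its markers, Hes1 was 1.55 CPM in 334 wild type cells (0.320 to 4.53) and 27.8 CPM in 522 ShhN cells (22.5 to 34.0). Nrarp was 109 and 25.5 CPM, and Hes5 17.0 and 15.5 CPM. The Hes1 and Nrarp differences were thus present away from the gate, and Hes5 was level there. This split was chosen after the values of the full class were seen.

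Dividing and non-dividing radial glia differed in Hes5 in opposite ways in the 2 libraries. Wild type Hes5 was 176 CPM in 62 dividing cells (143 to 214) and 116 CPM in 82 non-dividing cells (88.6 to 148), with intervals that overlap at their ends. In the ShhN library it was 100.9 CPM in 139 dividing cells (83.8 to 120) and 200 CPM in 139 non-dividing cells (171 to 232). The ShhN dividing cells thus lay below the wild type dividing cells, and the ShhN non-dividing cells above the wild type non-dividing ones, and the level Hes5 of the whole class is the sum of both. Hes1 was 169 and 108 CPM in the dividing and non-dividing wild type cells, and 218 and 211 CPM in the ShhN cells. Nrarp was 143 and 119 CPM in the wild type and 81.2 and 102 CPM in the ShhN library. These splits are single values per library with no replicate check.

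Within radial glia thinned to 4500 UMIs, Hes5 was seen in a larger share of the cells with a Hes1 UMI than of those without, but the intervals overlap in both libraries. In the wild type Hes5 was seen in 50% of 50 cells with a Hes1 UMI (35.5 to 64.5) and 25.7% of 70 cells without (16.0 to 37.6). In the ShhN library the shares were 36.2% of 116 (27.5 to 45.6) and 22.1% of 122 (15.1 to 30.5). Nrarp did not sort with Hes1 in the ShhN library, at 35.3% and 34.4%, and the wild type shares of 48.0% and 38.6% have overlapping intervals. At this depth 22.5% of wild type and 24.4% of ShhN radial glia had no UMI of any of the 4 genes.

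Across 21 groups of class and library with at least 50 cells, Pearson's r of log2(CPM + 10) between members was 0.84 for Hes1 with Hes5, 0.85 for Hes5 with Nrarp, 0.64 for Hes1 with Nrarp and 0.39 for Hes1 with Hey1. Among 8986 genes with at least 500 UMIs, the genes most like Hes1 were Tcof1 (r 0.94), Pcdh10, Nelfa, Ddx27 and Ptgfrn. Those most like Hes5 were Zfp36l1 (0.97), Tmem33, Snap23, Fam162a and Glo1. For Hey1 they were Gpm6b (0.89), Gys1, Gpn2, Tob1 and Slc15a2, and for Nrarp Kcne1l (0.97), Uaca, Cdc14a, Gli3 and Dhx32. The groups share 2 libraries and their free RNA, so these values describe likeness only.

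The rest of the pathway was read from a list of 37 genes for receptors, ligands, fringe enzymes, signal transducers, other Hes and Hey genes and the proneural genes that Hes proteins repress. In radial glia 18 of the 37 had at least 50 UMIs, and 2 were higher and 1 lower by the size rule, where 1.51% of all genes were higher and 2.13% lower. Jag1, a ligand, was 11.8 CPM in the wild type against 31.1 CPM in the ShhN library (log2 ratio 1.40, 0.53 to 2.38). Mfng, a fringe enzyme that alters how Notch binds its ligands, was 9.06 and 27.2 CPM (1.59, 0.60 to 2.72). Neurog2, a proneural gene, was 92.4 and 46.1 CPM (-1.002, -1.42 to -0.58), at the edge of the rule. Rbpj was 53.4 and 98.5 CPM (0.88, 0.46 to 1.33). The receptor Notch1 was 168 and 178 CPM and Notch2 95.1 and 58.7 CPM (-0.70, -1.08 to -0.30). The median log2 ratio of the 18 was 0.04, beside -0.01 over all genes measured in radial glia.

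In Eomes progenitors 24 of the 37 were measured and 0 passed the size rule in either direction, against 3.23% of all genes higher and 2.14% lower, with a median log2 ratio of -0.16 beside -0.09 over all genes. Notch1 was 77.2 and 74.3 CPM and Rbpj 82.4 and 80.9 CPM, both level between the libraries. Over the 2 receptors measured in these cells, Notch1 among them, the median log2 ratio was 0.22. The ligands Dll1 (21.5 and 16.1 CPM) and Dll3 (39.6 and 35.9 CPM) and the enzyme gene Mfng (153 and 168 CPM) were also within 2-fold. Hes6, a Hes family member known to oppose Hes1, was 325 and 274 CPM, a log2 ratio of -0.25 (-0.36 to -0.14). Neurog2 was 328 and 299 CPM, Neurod1 365 and 256 CPM (log2 ratio -0.51, -0.62 to -0.41) and Neurod4 42.8 and 25.8 CPM (-0.73, -1.05 to -0.40).

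By state and class the list gave few further genes. In dividing Eomes progenitors 19 were measured and Aph1a, a part of the gamma-secretase that cuts Notch, passed as higher (log2 ratio 1.05), against 1.29% of all genes. In non-dividing ones 21 were measured, with 0 higher and 1 lower, against 1.25% and 1.2%. In radial glia with Eomes and in newborn neurons 0 of 16 and 0 of 21 passed. Mfng passed as higher in upper layer (1.12) and deep layer neurons (1.18), where 0.565% and 0.305% of all genes did. In interneurons 4 of 18 passed as higher, Notch1 (2.54), Dll3 (2.40), Mfng (2.23) and Rbpj (1.29), against 6.59% of all genes, in the class whose dividing share also differed.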

How the data were processed

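The deposited values are raw UMI counts for each gene and barcode, 1 matrix to a group, per the file headers. Cell Ranger, StringTie and Seurat 3 are listed with mm10 in the submitters' processing notes, in roles not given in the sources used here. A control or experimental prefix on each matrix gave its group. Members, markers and lists were chosen with earlier results of these data known.

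Cells were barcodes past a UMI threshold (2333 and 2290, which is 10% of the 99th percentile among the top 3000), at least 800 genes and at most 10% mitochondrial UMIs. Doublets called by scrublet in scanpy 1.11.5 (4.05% of 7216 and 2.91% of 8317 barcodes) were removed. UMIs were summed per class and library. Intervals were exact: Poisson for CPM, conditional binomial for ratios, Clopper-Pearson for shares (scipy 1.17.1). UMI counts have no length correction, so levels were compared within a gene. Ratios needed 50 cells in each library. The rule for named genes was the 4 members, the 37 pathway genes, Eomes, Ptch1, Gli1, Shh and markers where a result turns on them, and the 5 genes most like each member. Some results under this rule are not reported here. The size rule was tested on simulated data. Alternatives covered gates, Leiden clusters, cell calling, doublets, scaling by edgeR 4.0.16 (TMM), depth, free RNA and count minimums.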

Additional observations from a re-analysis of the deposited data

Results flagged for a closer look

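Barcodes between the free RNA range and the cell threshold, with more than 100 UMIs, are used in no comparison above. In the ShhN library they held 27.6 CPM of Hes1 (21.9 to 34.4), and in the wild type 7.48 CPM (5.83 to 9.45). They held 15.2 CPM of Hes5 in the ShhN library (11.04 to 20.4) and 8.33 CPM in the wild type (6.58 to 10.4). These levels stood above the wild type library in barcodes not called as cells. The range reaches up to the cell threshold, so it can hold cells of low depth as well as free RNA. Hey1 was 11.1 CPM in the ShhN and 11.5 CPM in the wild type library, and Nrarp 9.32 and 11.6 CPM, with overlapping intervals. The ShhN library had 10013 such barcodes and the wild type 51985.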

How the results depend on the processing

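Each group is 1 library, so differences between embryos, electroporations and libraries are not measured, and intervals cover counting error only. No paired analysis was possible because the cells of a library could not be traced to its numbered samples. Of 355 log2 ratios of members under another setting, 336 stayed within the counting interval of the value reported. None of the ratios reported as past 2-fold changed sign where a setting gave a value. Hes1 in deep layer neurons, reported as 0.97 from 5 and 11 UMIs, was -1.02 with free RNA subtracted by the globin level of the median cell, a setting chosen after seeing the data; the cause was not tested. Hes1 over all Eomes progenitors ranged from 3.19 to 5.73 and Nrarp from -2.10 to -1.37 over 13 alternatives each. The largest value of Hes1, 5.73, came with free RNA subtracted by the class level of globin, where Nrarp was -1.80. In Eomes progenitors with at most 2 radial glia markers, a setting chosen after seeing the data, Nrarp was -2.10 and Hes5 -0.13. Hes5 in radial glia was -0.46 with cells thinned to 4500 UMIs and 0.23 with Leiden clusters, so its direction depends on the setting; the cause was not tested. TMM scaling moved all ratios up by 0.06 in radial glia, 0.14 in radial glia with Eomes, 0.13 in dividing and 0.11 in all Eomes progenitors, and changed no member call in these classes. Nrarp in dividing Eomes progenitors passed the size rule (-1.08) only when thinned. Nrarp in interneurons ran from -0.17 when thinned to 3.08 with free RNA subtracted by the class level of globin. That subtraction gave 19 ratios, of which 6 moved out of the counting interval. Its scale exceeded that of free RNA in wild type radial glia (1.21) and ShhN radial glia with Eomes (1.80), and it gave no value in either class. Nor did it give one for Hes1 in non-dividing Eomes progenitors, interneurons, or newborn, upper layer and deep layer neurons. Hes5 had none in interneurons and those neurons, Hey1 none in interneurons, and Nrarp none in those neurons. Of 40 counts of other Notch pathway genes past the rule, 11 moved by over 1.5 times with a minimum of 20 or 200 UMIs; in radial glia they became 3 higher and 3 lower at 20, and 0 in both directions at 200. Classes with under 50 UMIs of a gene in both libraries together are limited by depth.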
